A study of Mus musculus with 24 samples.

Results

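The step into darkness was measured as the difference between the 4 arrays labelled ZT12 and the 4 arrays labelled ZT8, which span the last 4 h of light. ZT is Zeitgeber time, in hours after lights on, and lights went off at ZT12. These 8 arrays belonged to a series of 24, with 4 mice at each of 6 time points and 1 mouse per array. All mice were wild-type (WT in the titles) male C57BL/6N animals of 10-12 weeks, kept on 12 h of light and 12 h of darkness with standard chow and water freely available, so the labels of ZT8 and ZT12 differ in the time of collection alone. Total RNA came from micropunches of brain slices labelled ventral tegmental area (VTA), which hold dopamine neurons together with other neurons, glia and vessels. Whether the ZT12 mice were taken just before or just after the lights went off is not given in the sources used here.

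The VTA is the origin of the mesolimbic dopamine projection and takes part in reward and food motivation. Most mammalian cell types can run a molecular clock, in which CLOCK and BMAL1 (gene Arntl) switch on the Per and Cry genes through E-boxes, and the PER and CRY proteins then inhibit their own activators. Mice are nocturnal, so the end of the light phase is the end of their rest, and it is also the time around which the adrenal glucocorticoid corticosterone is known to reach its daily peak in nocturnal rodents. Glucocorticoids act through a receptor that binds DNA and switches on a well-known set of genes in most tissues. Corticosterone is not among the measurements analysed here.

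The values were log2 intensities, and a difference of 1 on this scale is a doubling. Across 23410 transcripts (probe sets that the platform annotation links to a gene), no transcript passed the test at a Benjamini-Hochberg adjusted p under 0.05 in limma, which is a background of 0%. The smallest adjusted p was 0.243, that of Sgk1. At an unadjusted p under 0.05 there were 819 transcripts, or 3.5%, where 5% would pass if nothing differed. Of these, 394 were higher at ZT12 (1.68%) and 425 were lower (1.82%). All 4 ZT12 arrays lay above all 4 ZT8 arrays for 323 transcripts (1.38%) and below them for 354 (1.51%). A fit on the 8 arrays alone also passed no transcript after adjustment, and 1152 unadjusted. Replicate 4 at ZT0, an array outside the step that is described below, enters the shared spread of the main fit. Without it 0 transcripts passed after adjustment and 1057 unadjusted.

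The differences were small and their limits narrow. The median size was 0.06 and the median standard error 0.09. The 95% interval of the difference lay within 1 log2 unit of 0 for 23402 transcripts and within 0.5 for 22906 (97.8%), each interval taken singly. Only 11 transcripts differed by over 0.5, and none by over 1. Of these 11, Sgk1 and Mir679 were above the median level of all transcripts, and the other 9 were below it. Trdn, which encodes triadin of the muscle calcium release complex and was singled out after its values were seen, accounted for 3 of the 9. The largest of its differences was 0.74, with an unadjusted p of 0.0348, and another of its probe sets was at -0.30.

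No array of the 8 stood apart. Their medians were between 6.74 and 6.78, and the 28 pairwise correlations across transcripts were between 0.988 and 0.995, with a median of 0.992 both within and between the time points. Below, "higher" and "lower" describe measured means, since no gene passed the adjusted test for this step. The genes next described were ranked by the size of the difference itself among transcripts of 1 gene above the median level. Their arrays also did not overlap and their unadjusted p was under 0.05 (limma), so their values are a description and not a test. There were 60 such genes on the higher side and 63 on the lower side, and 12 of each are described.

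Sgk1, a kinase induced by serum and glucocorticoids that regulates ion channels and transporters, led the genes higher at ZT12. Its values at ZT8 were 6.73, 7.02, 7.04 and 7.02, and at ZT12 they were 7.65, 7.60, 7.35 and 7.64. All 4 arrays at ZT12 exceeded all 4 at ZT8, and the lowest array at ZT8 and the lowest at ZT12 each stood away from their 3 companions. The difference was 0.61 ± 0.11 (SE, n = 4 and 4), a 1.52-fold higher level with a 95% interval of 1.3 to 1.78, and the adjusted p from limma was 0.243. Without 1 array outside the step, replicate 1 at ZT20, the shared spread narrowed and the adjusted p became 0.0248 (an alternative chosen after seeing the data). With array weights it was 0.018.

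The DNA upstream of Sgk1 is shown because this gene had the smallest p of the step. RefSeq lists 6 start sites for it (GRCm38.p6), and a window of 250 bases before and 50 after each was searched. The window at the fifth of them, printed here without its last 50 bases (chr10:21993640-21993889, plus strand), held the only E-box of the 6. In capitals are the E-box (CACGTG) and, after it, a palindrome that matches the textbook glucocorticoid response element with any 3 bases at its centre.

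Sgk1: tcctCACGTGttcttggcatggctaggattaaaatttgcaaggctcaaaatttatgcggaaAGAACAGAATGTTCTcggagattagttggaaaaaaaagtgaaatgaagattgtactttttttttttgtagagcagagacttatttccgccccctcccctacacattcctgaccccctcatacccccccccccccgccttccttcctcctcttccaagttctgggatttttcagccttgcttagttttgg

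The palindrome was searched for only after this window had been read, and its first base lay at -189 from the start. It overlaps the letters GAANNTTC that were searched as a heat shock element core. Among 27025 genes with a promoter in the table, 3 held the palindrome (0.0111%). Of the 19 glucocorticoid-induced genes described further on, 17 had a promoter there and 1, Sgk1 itself, held it. Binding was not measured.

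Plekhf1, which encodes a lipid-binding protein of endosomes and lysosomes, came next. It measured 7.01, 7.0, 6.60 and 6.87 at ZT8 and 7.29, 7.57, 7.27 and 7.33 at ZT12, a difference of 0.50 ± 0.10 (adjusted p = 0.55, limma). Adipor2, a receptor for the fat hormone adiponectin, measured 7.33, 7.47, 7.30 and 6.95 at ZT8 and 7.62, 8.11, 7.54 and 7.67 at ZT12. The groups did not overlap in either gene. The Adipor2 difference was 0.47 ± 0.11, and it was 0.35 without its highest ZT12 array.

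Mertk, a receptor kinase with which glia and macrophages take up debris, measured 7.04, 7.15, 7.06 and 6.78 at ZT8 and 7.38, 7.38, 7.26 and 7.20 at ZT12 (0.30 higher). Tsc22d3, which encodes the glucocorticoid-induced leucine zipper GILZ, measured 7.56, 7.67, 7.52 and 7.55 at ZT8 and 7.81, 7.90, 7.88 and 7.77 at ZT12. Its difference was 0.27 ± 0.07 with an unadjusted p of 0.000754. Neither gene overlapped between the time points, and Mertk was more scattered at ZT8, where 1 array lay well below the other 3.

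The other members of the higher group differed by 0.26 to 0.28. They were Cry1, described with the clock below, the atypical cadherin gene Fat3, the RNA polymerase III subunit gene Polr3e, the carboxypeptidase gene Cpm, the Wnt receptor gene Fzd3, and the kinase genes Oxsr1 and Cdkl2. Fat3 is covered by 15 probe sets, whose differences were between -0.11 and 0.28, so its value belongs to 1 probe set. The second probe set of Polr3e was 0.15 higher. Etnppl, which encodes a lyase that breaks down phosphoethanolamine and is mainly astrocytic in brain, fell outside the group because 1 ZT12 array (8.27) lay just below the highest ZT8 array (8.29). Its difference was 0.48 ± 0.10 with an adjusted p of 0.672, and 0.018 with array weights.

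**Figure D1:**
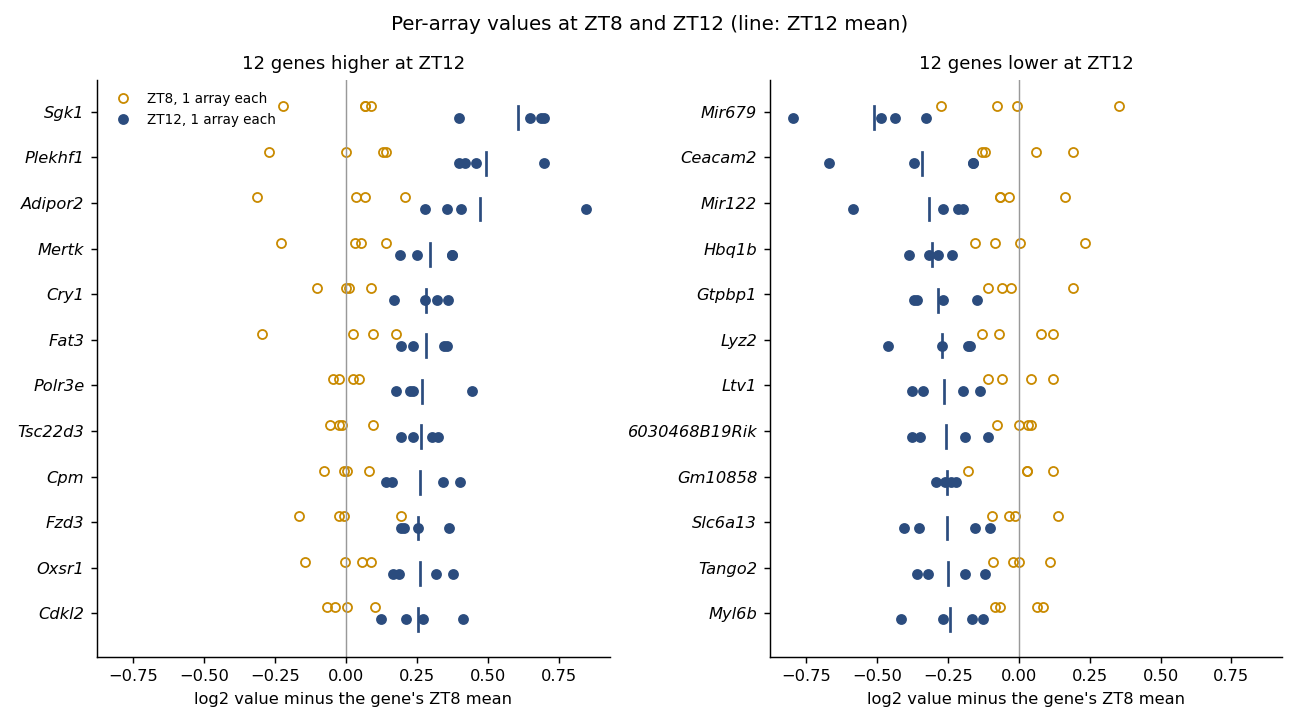
Log2 values of 12 genes in each direction, per array, minus the mean of the gene's 4 ZT8 arrays (open circles ZT8, filled circles ZT12, line at the ZT12 mean, n = 4 mice each). They have the largest differences among transcripts of 1 gene above the median level, with an unadjusted p under 0.05 (limma) and no overlap. Sgk1 and Mir679 lie farthest from 0, by 0.61 and -0.51, and in each gene the circles of the 2 time points are separate because that was required of the genes drawn.

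The lower group was led by a microRNA gene, Mir679, from the large imprinted microRNA cluster of chromosome 12. The array has 1 value for the locus and does not tell its mature arms apart. Both mature sequences (RefSeq, GRCm38.p6, plus strand) are shown because this was the largest lower value above the median level, with the seed, bases 2 to 8, in capitals. They lie at chr12:109715587-109715608 and chr12:109715624-109715645.

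mmu-miR-679-5p: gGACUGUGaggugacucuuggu

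mmu-miR-679-3p: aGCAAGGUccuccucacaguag

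Mir679 measured 8.09, 7.89, 8.16 and 8.52 at ZT8 and 7.68, 7.37, 7.84 and 7.73 at ZT12. The highest ZT12 array lay just below the lowest ZT8 array, and the difference was -0.51 ± 0.14 (unadjusted p = 0.00144, adjusted p = 1, limma). The seeds of the 2 arms have different letters.

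Mir122, the gene of a microRNA best known from liver, measured 7.09, 7.06, 7.06 and 7.29 at ZT8 and 6.54, 6.91, 6.93 and 6.86 at ZT12 (-0.32). Ceacam2, a cell adhesion gene, was lower by 0.34, and Hbq1b, a gene of the alpha-globin cluster, by 0.30, with the single blood marker measured at -0.09. The GTP-binding protein gene Gtpbp1 measured 7.06, 7.11, 7.36 and 7.14 at ZT8 and 6.81, 6.80, 6.90 and 7.02 at ZT12 (-0.29). In each of these genes the lowest ZT8 array lay close above the highest ZT12 array, so the separation was narrow.

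Lyz2, the lysozyme of macrophages and microglia, was lower by 0.27, with 6.98, 7.02, 6.77 and 6.83 at ZT8 and 6.72, 6.73, 6.63 and 6.44 at ZT12. The other 6 were lower by 0.24 to 0.26: the ribosome biogenesis gene Ltv1, Slc6a13, which encodes a GABA transporter of the meninges, Tango2, the myosin light chain gene Myl6b, and the unnamed loci 6030468B19Rik and Gm10858. All had an adjusted p of 1.

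Among the 44 gene lists followed, the glucocorticoid-induced genes had the largest share past the unadjusted threshold. Of 19 measured, 16 were higher at ZT12 and 3 lower, where 50.1% of all transcripts were higher. The median difference of the list was 0.08, against 0.00 for all transcripts. At an unadjusted p under 0.05, 6 of 19 were higher and 0 lower (31.6%, against 3.5% of all transcripts in either direction). None passed after adjustment. The mean of the list was 7.44 to 7.51 over the ZT8 arrays and 7.56 to 7.64 over the ZT12 arrays, without overlap. The list median ran from 0.05 (without replicate 1 at ZT8) to 0.12 (without replicate 3 at ZT8) when single arrays of the step were left out.

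The 6 were Sgk1, Tsc22d3, Mt2, Zbtb16, Klf9 and Ddit4. Zbtb16, a zinc finger transcription factor gene, measured 7.41, 7.38, 7.46 and 7.44 at ZT8 and 7.66, 7.61, 7.59 and 7.60 at ZT12, a difference of 0.19 ± 0.07 (unadjusted p = 0.0148). Its SD of 0.04 and 0.03 was small at both times, and the groups did not overlap. Mt2, a metal-binding metallothionein gene, measured 9.69, 9.84, 10.00 and 9.87 at ZT8 and 10.07, 10.18, 9.98 and 10.08 at ZT12 (0.23 higher), and 1 array of each group lay within the range of the other. Klf9, a Krüppel-like transcription factor gene, was 0.18 higher, and Ddit4, an inhibitor of mTORC1 signalling, 0.19 higher, both with overlap.

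Other members of the list, named after their values were seen, did not pass the unadjusted threshold. Fkbp5, which encodes a co-chaperone that restrains the glucocorticoid receptor, measured 6.41, 6.15, 6.56 and 6.45 at ZT8 and 6.29, 6.36, 6.43 and 6.52 at ZT12, a difference of 0.01, which turned to -0.04 with array weights. Mt1, the neighbour and near relative of Mt2, differed by 0.01. Pdk4, a kinase that restrains pyruvate dehydrogenase, was 0.18 higher with an unadjusted p of 0.0774.

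The same genes were then followed across the opposite transition. The step into light, from the 4 ZT20 arrays to the 4 ZT0 arrays, shares no array with the step into darkness, so the 2 steps were compared in the same fit by the difference between them. One array of the step into light, replicate 4 at ZT0, stood apart, with a median correlation of 0.97 with the other 23 arrays, where every other array had 0.988 to 0.993. At the step into light 2094 transcripts (8.94%) passed an unadjusted p under 0.05, and 3635 without that array. Leaving it out was planned, but with earlier results of these data known. For the difference between the steps the count was 1864 (7.96%), or 2562 without it, and 1 transcript passed after adjustment (0.00427%).

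That transcript was Sgk1. From ZT20, with 6.86, 7.40, 7.47 and 7.25, it went to 6.67, 6.94, 6.81 and 6.78 at ZT0, a difference of -0.45 ± 0.11 with an adjusted p of 0.384 for that step alone. The step into darkness exceeded the step into light by 1.05 ± 0.16 on the log2 scale (adjusted p = 0.00994, limma). The call held when each of the 16 arrays was left out in turn (adjusted p from 0.000191 to 0.049), and it was lost when probe sets without a gene were added to the adjustment (adjusted p = 0.0775).

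Plekhf1 and Etnppl followed in the order of p, with differences between the steps of 0.81 (adjusted p = 0.0804) and 0.80 (adjusted p = 0.0844). Plekhf1 was 0.31 lower at ZT0 than at ZT20, and Etnppl 0.31 lower. Both passed when the adjustment was made over transcripts above the median level only, with an adjusted p of 0.0449 for Plekhf1 and 0.0476 for Etnppl. Adipor2 differed between the steps by 0.72 (adjusted p = 0.343).

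Of the glucocorticoid-induced genes, 17 of 19 were lower at ZT0 than at ZT20, with a list median of -0.16, where 53.4% of all transcripts were lower. Between the steps, 10 of 19 differed at an unadjusted p under 0.05, against 7.96% of all transcripts. The difference between the steps contains the step into darkness, so this count is not independent of the one given for that step. Without replicate 4 at ZT0, 18 of 19 were lower at ZT0 (median -0.15), and 7 of 19 differed between the steps, against 10.9% of all transcripts. Zbtb16 differed by 0.46, Mt2 by 0.47, Klf9 by 0.41 and Tsc22d3 by 0.37, with adjusted p between 0.343 and 0.431. Mt1, which did not differ at the step into darkness, was 0.23 lower at the step into light, and whether the 2 metallothionein genes differ from each other was not tested.

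**Figure D2:**
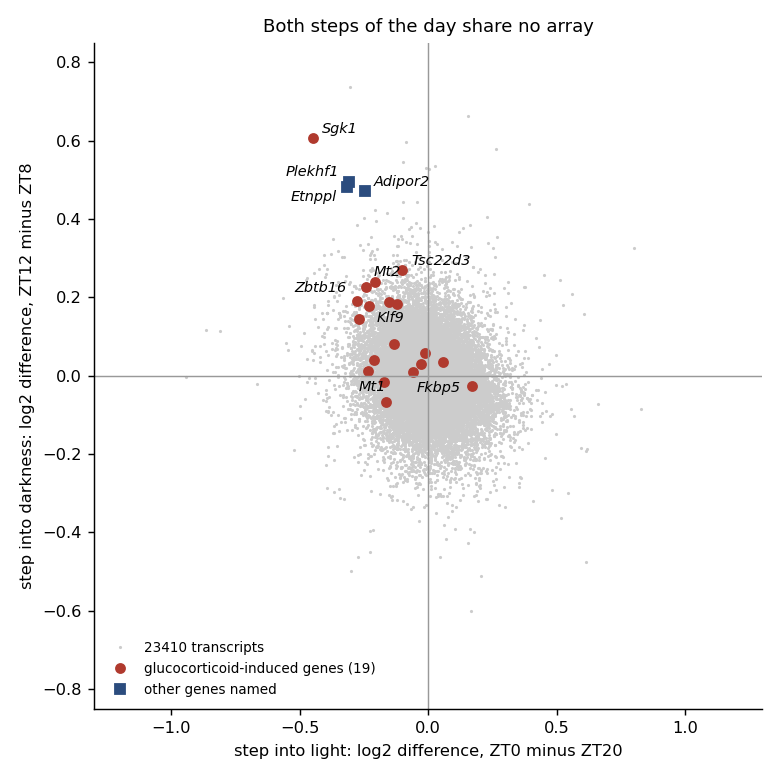
Log2 difference at the step into darkness (ZT12 minus ZT8) against that at the step into light (ZT0 minus ZT20), 1 grey point per transcript, with 19 glucocorticoid-induced genes in red and 3 other genes in blue. Sgk1 lies at 0.61 on the vertical and -0.45 on the horizontal axis, and most red points lie to the left of and above 0.

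Over the whole day Sgk1 had its highest mean at ZT12, at 7.56 ± 0.14 (SD, n = 4). The means were 6.80 at ZT0, 6.74 at ZT4, 6.95 at ZT8, 7.18 at ZT16 and 7.25 at ZT20. Its level was already 0.22 higher at ZT8 than at ZT4, and was 0.38 lower at ZT16 than at ZT12. ZT20 was the most scattered time point, with an SD of 0.27.

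Adipor2, Tsc22d3, Mt2, Zbtb16 and Klf9 also had their highest mean at ZT12. Tsc22d3 had a mean between 7.55 and 7.60 at ZT0, ZT4 and ZT8, 7.84 at ZT12, and 7.67 and 7.66 at ZT16 and ZT20. Plekhf1 had means of 7.36 at ZT12 and 7.24 at ZT16 and ZT20, and Etnppl 8.52, 8.32 and 8.46. Zbtb16 likewise had means of 7.61 at ZT12 and 7.57 at ZT20.

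**Figure D3:**
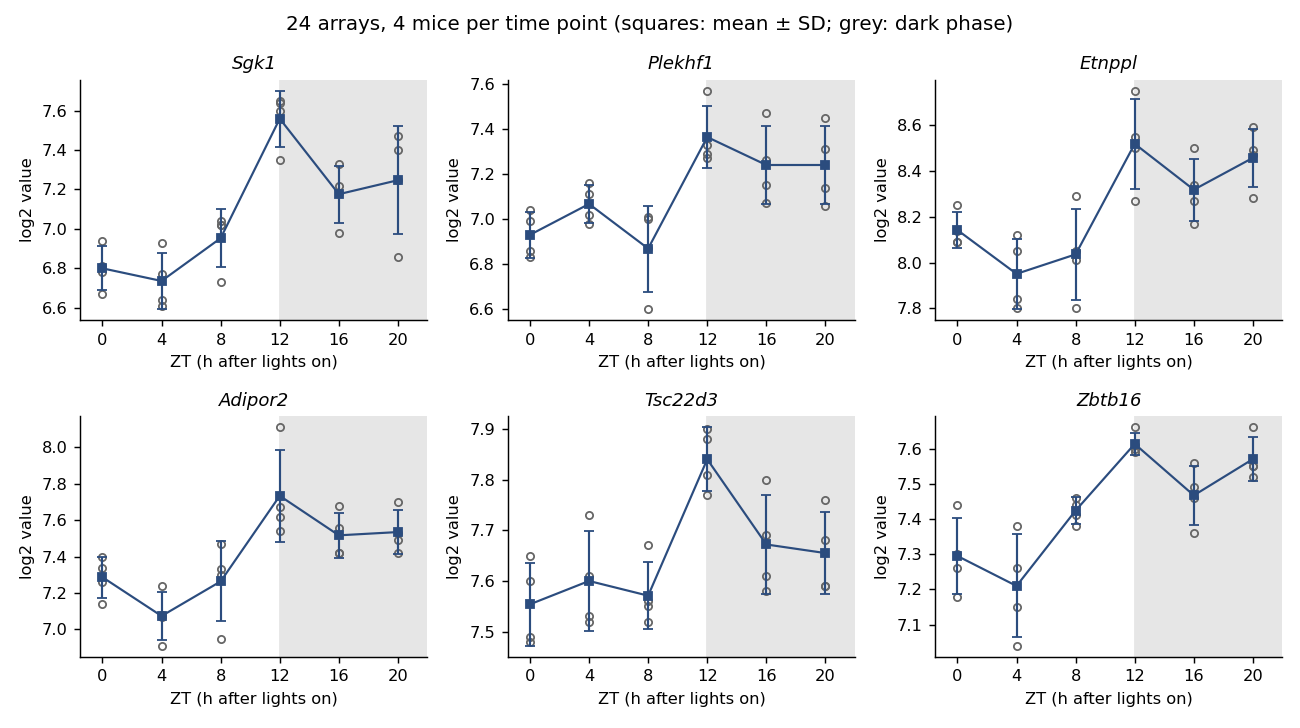
Log2 values of 6 genes in each of the 24 arrays against ZT in hours, with circles for mice, squares and bars for mean ± SD (n = 4) and grey for the dark phase. Each of the 6 has its highest mean at ZT12, for example 7.56 for Sgk1 and 7.84 for Tsc22d3.

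Further genes with a large difference between the steps, none of them past the adjusted threshold, were Psg23, a pregnancy-specific glycoprotein gene (0.71), Triml2 (0.63) and the semaphorin receptor gene Plxnc1 (0.57) on the higher side. On the lower side were the ribosomal protein gene Rpl5 (-0.67), the microRNA gene Mir365-1 (-0.77), the locus 1300017J02Rik (-0.48), the growth factor gene Fgf4 (-0.47), Zswim1 (-0.49) and the T-box gene Tbx6 (-0.46). The Rpl5 value came from 1 of 5 probe sets. At the step into darkness the other 4 lay at -0.05 to -0.04, against -0.10 for this one. Their values at the step into light are not given here, so they do not bear on the difference between the steps. Fabp7, a fatty acid carrier of radial glia and astrocytes, was 0.30 lower at ZT12 than at ZT8 (8.56, 8.65, 8.41 and 8.60, then 8.29, 8.38, 8.41 and 7.94), its groups meeting at 8.41. It differed between the steps by -0.84 with an adjusted p of 0.469, which became -1.15 and 0.00811 without replicate 4 at ZT0, where it measured 7.64 against 8.66 to 8.99 in the other 3 mice.

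Mir365-1 is shown by sequence because it is the microRNA gene among them. The gene Mir365-2 makes the same mature 3p product. The positions are chr16:13453855-13453877 and chr16:13453895-13453916 (plus strand), and capitals again mark the seed.

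mmu-miR-365-1-5p: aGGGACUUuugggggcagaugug

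mmu-miR-365-3p: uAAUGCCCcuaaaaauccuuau

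Mir365-1 measured 7.25, 7.14, 7.18 and 7.49 at ZT8 and 7.16, 6.44, 7.21 and 7.07 at ZT12. The groups overlapped, and 1 ZT12 array lay far below the others.

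Clock genes differed little over these 4 h. Of the 10 repressors measured, 8 were higher at ZT12, with a list median of 0.06, and of the 6 output factors 5 were higher, with a median of 0.09. The 4 activators and ROR receptors had a median of 0.00 and the 8 kinases and ubiquitin ligases a median of 0.01. At an unadjusted p under 0.05 there were 2 of the 28 clock genes, Cry1 and Bhlhe40, against 3.5% of all transcripts, and none after adjustment.

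Cry1, which encodes the repressor that closes the feedback loop in the night, measured 7.32, 7.43, 7.42 and 7.51 at ZT8 and 7.59, 7.70, 7.78 and 7.74 at ZT12. The groups did not overlap, and the difference was 0.28 ± 0.09, a 1.22-fold higher level with a 95% interval of 1.07 to 1.38 (unadjusted p = 0.00384, adjusted p = 1). Bhlhe40, a repressor that competes for E-boxes, measured 7.54, 7.64, 7.54 and 7.62 at ZT8 and 7.53, 7.35, 7.36 and 7.21 at ZT12. It was 0.22 lower (unadjusted p = 0.00973), its ZT8 mean of 7.59 was the highest of the 6 time points, and the highest ZT12 array was just below the lowest ZT8 array.

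The measured differences of the Period genes were small. Their means over the 24 arrays (6.59 for Per1, 6.715 for Per2 and 6.637 for Per3) lay below the median level of all transcripts, 6.76. Per1 measured 6.67, 6.52, 6.59 and 6.60 at ZT8 and 6.68, 6.80, 6.64 and 6.73 at ZT12, a difference of 0.12 with a 95% interval of -0.04 to 0.28. Per2 differed by 0.07 (-0.09 to 0.23) and Per3 by 0.05 (-0.10 to 0.19). These intervals hold 0 and also moderate differences of up to 0.28.

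Nr1d1, which encodes the heme receptor REV-ERBα and represses Arntl, measured 8.81, 8.74, 8.73 and 8.55 at ZT8 and 8.43, 8.66, 8.58 and 8.69 at ZT12, a difference of -0.11 with overlap. Its relative Nr1d2 differed by 0.11 and Arntl itself by -0.10. Clock differed by -0.02, Cry2 by 0.06, Bhlhe41 by 0.15, Rorb by 0.01 and Ciart, a repressor of CLOCK-BMAL1, by 0.00, with 0.05 in its second probe set. Rora, an activator of Arntl, measured 8.30, 8.35, 8.26 and 8.27 at ZT8 and 8.47, 8.36, 8.41 and 8.48 at ZT12, without overlap (0.13 higher, unadjusted p = 0.0639).

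Dbp, a D-box activator and a direct E-box target, measured 7.22, 7.15, 7.26 and 7.13 at ZT8 and 7.27, 7.35, 7.42 and 7.31 at ZT12. The groups just missed each other, and the difference was 0.15 (unadjusted p = 0.0923). The related factor genes Tef and Hlf differed by 0.11 and 0.01, the opposing repressor gene Nfil3 by -0.03, the deubiquitinase gene Usp2 by 0.06 and the cell cycle kinase gene Wee1 by 0.14. The 6 output genes had a list mean of 7.33 to 7.39 over the ZT8 arrays and 7.41 to 7.46 over the ZT12 arrays.

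Among the genes that modify clock proteins, Fbxl21, which encodes an F-box protein acting on CRY, was 0.15 lower (unadjusted p = 0.071). Csnk1d, Csnk1e, Csnk1a1, Csnk2a1, Gsk3b, Btrc and Fbxw11 differed by between -0.04 and 0.09. The sign of the differences for Clock, Cry2, Ciart, Rorb, Hlf, Nfil3, Csnk1a1, Csnk1d, Csnk1e, Csnk2a1 and Fbxw11 turned when single arrays were left out.

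**Figure D4:**
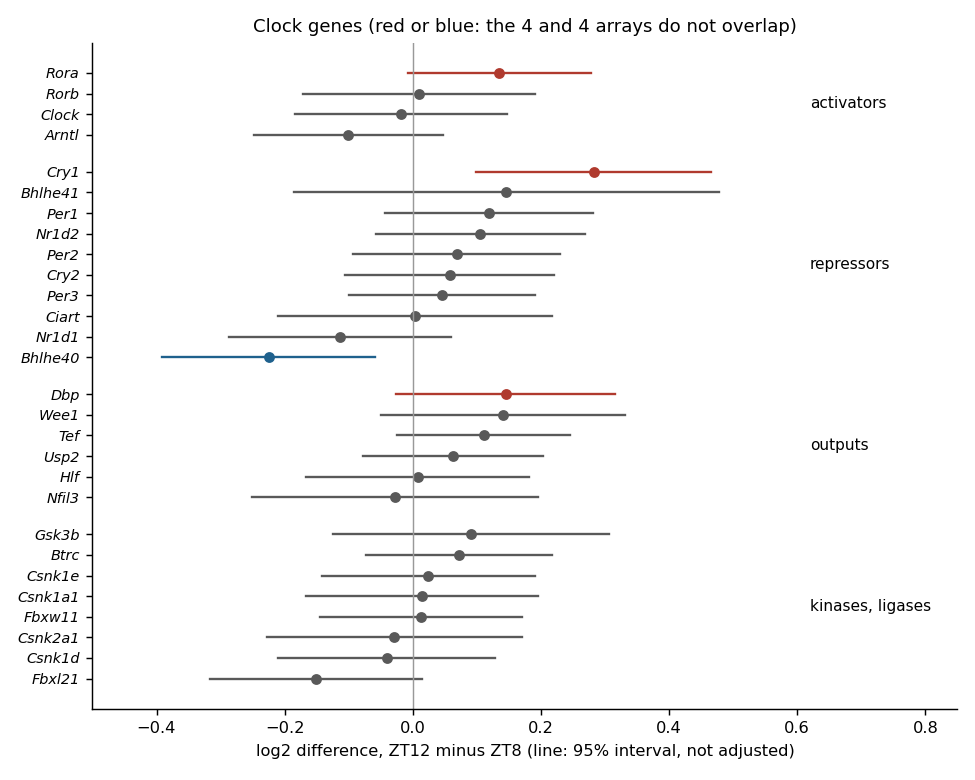
Log2 difference ZT12 minus ZT8 of 28 clock genes with 95% intervals from limma (unadjusted), grouped by role, with red and blue for genes whose 4 and 4 arrays did not overlap. Cry1 at 0.28 and Bhlhe40 at -0.22 are the only genes whose interval does not hold 0.

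The promoter windows of Cry1 and Ciart are shown because both hold the E-box. The probe sets that stood for these genes had differences of 0.28 and 0.00. They are the 250 bases before the start, on the minus strand, at chr10:85185055-85185304 and chr3:95882229-95882478 (RefSeq, GRCm38.p6), with CACGTG in capitals. The 0.00 of Ciart came from 1 of its 2 probe sets, and the other gave 0.05. Whether either of them measures another locus was not tested, so the printed window may not be that of the transcript measured.

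Cry1: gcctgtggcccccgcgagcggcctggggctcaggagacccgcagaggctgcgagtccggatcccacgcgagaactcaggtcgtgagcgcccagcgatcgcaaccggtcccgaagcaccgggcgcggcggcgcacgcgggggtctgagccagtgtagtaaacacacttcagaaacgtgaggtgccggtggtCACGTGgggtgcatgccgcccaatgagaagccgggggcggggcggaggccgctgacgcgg

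Ciart: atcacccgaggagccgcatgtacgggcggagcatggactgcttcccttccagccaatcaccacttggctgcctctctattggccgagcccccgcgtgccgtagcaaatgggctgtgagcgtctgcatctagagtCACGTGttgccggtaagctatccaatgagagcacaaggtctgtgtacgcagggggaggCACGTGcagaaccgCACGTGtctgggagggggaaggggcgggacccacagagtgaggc

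The E-box of Cry1 began at -60 from the start, and the Ciart window held 3 of them. Of the 51 genes made up of the 12 higher, the 12 lower and the clock genes, 41 had a promoter in the table, with 62 windows of 250 bases before and 50 after a start. An E-box was found in 8 of the 41 (19.5%) and in 8.09% of all 27025 genes. The 8 were Bhlhe41, Ciart, Cry1, Ltv1, Per1, Polr3e, Sgk1 and Tef, of which only Cry1, Polr3e and Sgk1 were among the 12 higher and Ltv1 among the 12 lower.

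Over the 41 genes the other motifs also lay above their shares of all genes, by little or in few genes. The ROR and REV-ERB element AGGTCA was in 8 of 41 (19.5%, against 18.1% of all genes) and the heat shock element core GAANNTTC in 5 (12.2%, against 9.04%). The D-box TTATGTAA was in 1, Per3 (2.44%, against 1.11%), and the cAMP response element TGACGTCA in 2, Hlf and Oxsr1 (4.88%, against 2.03%). Both strands were searched, and all 5 searches were without a test.

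No gene of dopamine synthesis, packaging and reuptake passed even the unadjusted threshold. The defining markers Th, Slc6a3, Slc18a2 and Ddc lay above the median level of all transcripts (6.76) in each of the 8 arrays, although detection over background was not measured. Th, which encodes the rate-limiting enzyme of dopamine synthesis, measured 7.86, 7.92, 7.84 and 7.68 at ZT8 and 7.94, 7.52, 7.76 and 7.43 at ZT12. Its difference was -0.16 with a 95% interval of -0.44 to 0.12. Slc6a3, the dopamine transporter gene, measured 8.62, 8.69, 8.54 and 8.21 at ZT8 and 8.99, 8.02, 8.46 and 8.19 at ZT12.

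The spread of Slc6a3 at ZT12 covered nearly 1 log2 unit, its interval was -0.51 to 0.31, and its sign turned without replicate 2 at ZT12. Slc18a2, the vesicular monoamine transporter gene, differed by -0.08 (-0.26 to 0.09) and Ddc, the decarboxylase gene, by -0.10 (-0.33 to 0.13). Over the list of synthesis, packaging and reuptake, 6 of 8 were lower, with list means of 7.84 to 7.95 at ZT8 and 7.70 to 8.05 at ZT12. The ZT12 list means spread wider than those of ZT8, and in bulk tissue fewer dopamine neurons in a punch and less RNA per neuron cannot be told apart.

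Nr4a2, a transcription factor that maintains dopamine neurons, was 0.15 higher at ZT12 with overlap (unadjusted p = 0.0868). Of the 9 transcription factors of these neurons, 6 were lower. Otx2, which marks a subset of these neurons, was the 1 factor gene without overlap (-0.12, named after its values were seen). Of all transcripts, 1.51% were lower without overlap. Dopamine receptors and signalling genes had 4 of 7 higher, and no member of any of the 4 dopamine lists passed an unadjusted p under 0.05.

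Receptors through which feeding signals act were near the background. Of 19, 11 were higher and 8 lower, and Adipor2 alone passed an unadjusted p under 0.05 (5.26%, against 3.5% of all transcripts). Mc3r, a melanocortin receptor gene, measured 6.97, 6.83, 6.85 and 6.80 at ZT8 and 6.73, 6.80, 6.79 and 6.50 at ZT12 (-0.16, unadjusted p = 0.11), and its ranges touched at 6.80.

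Of 15 opioid and endocannabinoid genes, 2 passed an unadjusted p under 0.05, both higher (13.3%, against 3.5% of all transcripts in either direction). The list median was -0.01, with 8 of 15 lower. Oprk1, the kappa opioid receptor gene, measured 6.14, 6.22, 6.20 and 6.03 at ZT8 and 6.52, 6.26, 6.30 and 6.33 at ZT12, without overlap (0.21 higher, unadjusted p = 0.0218). Pdyn, which encodes its ligand precursor prodynorphin, measured 6.40, 6.24, 6.39 and 6.31 at ZT8 and 6.64, 6.25, 6.52 and 6.71 at ZT12 (0.20 higher, unadjusted p = 0.041). One ZT12 array of Pdyn lay at the ZT8 level.

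Grin2a, which encodes an NMDA receptor subunit, was the 1 of 24 glutamate and GABA-A receptor genes past the unadjusted threshold (4.17%, near the 3.5% of all transcripts). It measured 6.48, 6.82, 6.56 and 6.47 at ZT8 and 6.87, 6.88, 7.07 and 6.64 at ZT12 (0.29 higher, unadjusted p = 0.00321), with overlap by 1 array. Of 87 potassium channel genes, 5 passed it (5.75%, against 3.5%). Kcnk7 (-0.30), Kcnh8 (-0.26, with -0.06 in its second probe set) and Kcnk12 (-0.21) were lower, and Kcna1 (0.19), an axonal delayed rectifier, and Kcnk18 (0.20) higher.

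Kcnk7, a 2-pore channel subunit gene, measured 6.69, 6.59, 6.72 and 6.81 at ZT8 and 6.51, 6.26, 6.28 and 6.56 at ZT12, without overlap. Among 24 immediate early genes, which neurons switch on when active, 1 passed the unadjusted threshold (4.17%, near the 3.5% of all transcripts), Jun, which was 0.21 lower at ZT12. Egr1 differed by 0.14, and the list median was 0.02. The heat shock and ER chaperone lists had medians of -0.02 and -0.03, and the 2 cold-inducible genes a median of 0.08. Cirbp, a cold-inducible RNA-binding protein gene, differed by 0.03, Rbm3 by 0.14, the small heat shock protein gene Hspb1 by -0.13 and the ER chaperone gene Calr by -0.11, none of them past the unadjusted threshold.

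Genes of energy production, of the ribosome and of the proteasome were mostly lower at ZT12 by small amounts. Of 79 nuclear genes of oxidative phosphorylation, 62 were lower (median -0.07), of 61 cytosolic ribosomal protein genes 50 (median -0.05), of 39 proteasome genes 27 (median -0.05) and of 13 glycolysis genes 10 (median -0.06). Only 1 gene of oxidative phosphorylation passed an unadjusted p under 0.05 (1.27%, against 3.5%), Ndufa11 of complex I, which was 0.18 lower. Sdhb of complex II ran the other way, at 7.69 to 7.75 at ZT8 and 7.77 to 7.93 at ZT12.

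These genes are among the most abundant on the array. Of the 2341 transcripts with the highest mean level, 56.3% were lower at ZT12, with a median of -0.01. At the step into light, 80.9% of these were higher (median 0.10), and so were 69 of the 79 oxidative phosphorylation genes (median 0.13). Without replicate 4 at ZT0 these were 78.8% and 68 of 79 (medians 0.12 and 0.16). The list means of oxidative phosphorylation overlapped between the time points, at 8.92 to 9.15 over the ZT8 arrays and 8.84 to 9.05 over the ZT12 arrays. With further quantile normalization or with arrays centred on their medians the median was -0.06, and it ran from -0.12 to -0.02 when single arrays of the step were left out.

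Single genes of these lists illustrate the spread. Psmb5, a catalytic proteasome subunit, was 0.20 lower (unadjusted p = 0.0349), and Rps15a 0.33 lower (unadjusted p = 0.0819), with 6.89 in 1 ZT12 array against 7.44 to 7.79 in the others. Hk1, the brain hexokinase gene, was -0.19 in one probe set and 0.04 in the other, and Pkm, the last enzyme of glycolysis, was -0.12 and -0.02. Of 20 cholesterol synthesis genes, 2 passed the unadjusted threshold and both were higher (10%, against 3.5% of all transcripts in either direction). They were Tm7sf2 (0.16, without overlap) and Fdft1 (0.18, with 0.01 in its second probe set).

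Nutrient transporters gave values on either side. Slc7a5, the large neutral amino acid transporter gene, was 0.15 higher (8.20, 8.31, 8.09 and 8.06, then 8.33, 8.22, 8.39 and 8.31, unadjusted p = 0.0724). Slc2a1, the glucose transporter gene of the blood-brain barrier, was 0.16 higher (unadjusted p = 0.0601), and Slc1a4, which carries serine and alanine, -0.06. Of 51 small nucleolar RNAs, Snord73b was 0.33 higher and Snord15b 0.19 lower at unadjusted p under 0.05 (3.92%, near the 3.5% of all transcripts).

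Markers of cell types were followed to see whether the makeup of the punches moved. Of 11 endothelial markers, 8 were lower, and 2 passed the unadjusted threshold (18.2%, against 3.5% of all transcripts in either direction). Kdr, the main VEGF receptor gene, measured 6.54, 6.57, 6.39 and 6.34 at ZT8 and 5.93, 6.24, 6.34 and 6.13 at ZT12, a difference of -0.30 in which the groups met at 6.34. Cldn5, a tight junction gene of the blood-brain barrier, measured 7.26, 7.13, 7.39 and 7.14 at ZT8 and 7.02, 6.99, 6.92 and 7.07 at ZT12 (-0.23), without overlap. The endothelial list mean nevertheless overlapped, at 7.25 to 7.47 and 7.27 to 7.31.

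Microglial markers were lower in 10 of 11 (median -0.04) and mural cell markers in 7 of 8 (median -0.09), with no member past the unadjusted threshold. Mural list means were 7.64 to 7.71 at ZT8 and 7.42 to 7.69 at ZT12. Of 12 astrocyte markers, 5 were higher and 7 lower (median -0.02). Aldh1l1, named after its values were seen, was 0.14 higher and the 1 marker without overlap, where 1.38% of all transcripts were higher without overlap. The part of vessel and glial content in the values of Lyz2, Mertk and Etnppl, genes of such cells, was not tested.

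Oligodendrocyte markers had 5 of 11 higher and 6 lower (median -0.01). Cldn11 of myelin tight junctions was 0.19 higher (unadjusted p = 0.0198, limma). It was the 1 marker past the unadjusted threshold (9.09%, against 3.5% of all transcripts in either direction). Of 6 markers of oligodendrocyte precursors, 3 were higher and 3 lower (median -0.01). Past the unadjusted threshold was 1 (16.7%, against 3.5% of all transcripts in either direction). This was Olig2, a transcription factor of the oligodendrocyte lineage, which measured 7.80, 7.77, 7.86 and 7.68 at ZT8 and 7.63, 7.44, 7.64 and 7.54 at ZT12, lower by 0.22 without overlap (unadjusted p = 0.00765). Id2, an inhibitor of helix-loop-helix factors, was lower by 0.22 with 8.04, 8.20, 8.05 and 8.05 at ZT8 and 7.84, 8.01, 7.99 and 7.63 at ZT12. Markers of GABA, glutamate, serotonin and hypothalamic neurons had list medians between -0.02 and 0.02, with no member past the unadjusted threshold.

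**Figure D5:**
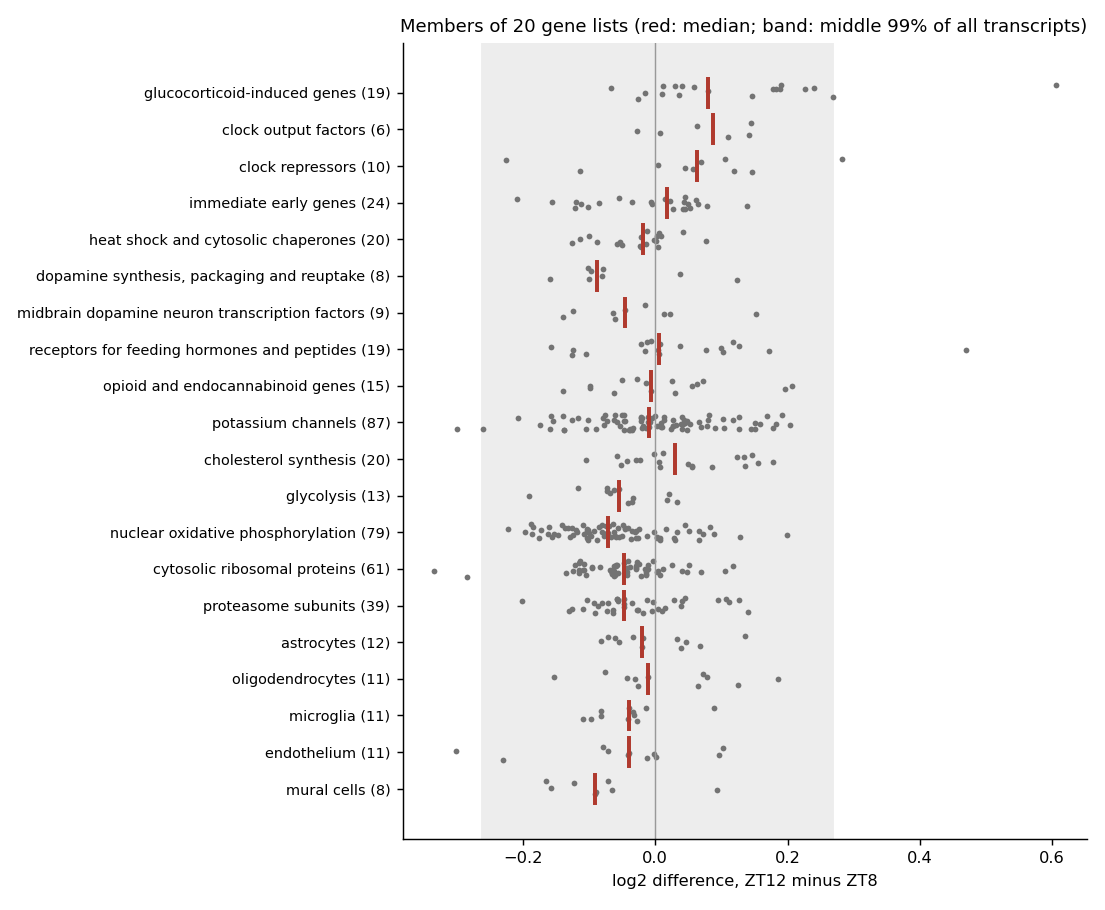
Log2 difference ZT12 minus ZT8 for the measured members of 20 gene lists (grey points, number of members in parentheses, red line at the median), with the band that holds the middle 99% of all transcripts, from -0.26 to 0.27. The red lines all lie within 0.1 of 0, and Sgk1 at 0.61 and Adipor2 at 0.47 lie farthest outside the band.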

How the data were processed

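Total RNA of VTA punches was measured on 24 Affymetrix mouse whole-transcript arrays, 1 per mouse. The authors deposited 1 table of log2 values, made with RMA in R 2.13.1 according to the submitters' processing notes. RMA corrects background, applies quantile normalization and summarises the probes of each set, which removes array-wide shifts. Sampling times follow the labels (4 h apart), since the study's methods give another interval.

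The table held 35556 probe sets, 23410 of them with a gene (21789 with 1, 1621 with several) in the platform annotation and 12146 without. Symbols were updated through the gene table of GRCm38.p6 (21698 matched). Where a gene had several probe sets, the one of highest mean stood for it in the lists. limma 3.58.1 in R 4.3.3 fitted the 6 time points as groups over all 24 arrays (18 residual degrees of freedom), which share 1 estimate of the spread. Contrasts were ZT12 minus ZT8 and this minus (ZT0 minus ZT20), with Benjamini-Hochberg adjustment over 23410 transcripts. The fits were tested on simulated data. The motif search was tested only on short strings with known positions of AGGTCA and CACGTG. The number of arrays limits the precision, and detection above background was not measured.

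The rule for named genes took up to 15 calls per direction. These were filled to 12 with the largest differences above the median level, with an unadjusted p under 0.05 and no overlap. It added all clock genes, 4 dopamine genes, up to 4 of smallest p per list described, 6 per direction by the difference between the steps, and Cirbp, Fabp7, Slc7a5, Sgk1, Klf9, Adipor2, Zbtb16 and Id2. Not every gene it allows is described. Of 44 lists, those not described (such as neuropeptides, nicotinic receptors, interferon and hypoxia genes) had no member past the unadjusted threshold. Genes, lists and tests were chosen with earlier results of these data known. Genes named outside the rule were Ddit4, Pdk4, Mt1, Fkbp5, Otx2, Sdhb, Kcnk18, Aldh1l1, Pkm, Slc1a4 and Trdn, chosen after their values were seen. Plots were drawn with matplotlib 3.10.9.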

Additional observations from a re-analysis of the deposited data

Results flagged for a closer look

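Sgk1 differed between the transitions, by 1.05 on the log2 scale, as tested by the difference of the steps.

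Of 218 groups of 4 arrays, 16 (7.34%) had 1 array far from the other 3, where about 5% would by chance. In Sgk1 these were replicate 1 at ZT8 (6.73, others 7.02 to 7.04) and replicate 3 at ZT12 (7.35, others 7.60 to 7.65). At ZT8 they were also replicate 4 for Mir122 (7.29), Hk1 (10.87), Plxnc1 (6.54) and Ddit4 (6.17), replicate 3 for Per3 (6.73), Gsk3b (8.66) and Rbm3 (9.17), and replicate 2 for Zswim1 (6.69), Id2 (8.20) and Mt1 (9.10). At ZT12 they were replicate 2 for Btrc (8.70) and Fbxw11 (7.31), and replicate 1 for Ddc (8.68) and Zswim1 (6.36).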

How the results depend on the processing

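The step passed 0 transcripts after adjustment under each other setting except array weights (2, Sgk1 and Etnppl) and 0 to 1 when each of the 24 arrays was left out in turn, the 1 being Sgk1 without replicate 1 at ZT20. Of the 16 arrays outside the step, 15 (all but replicate 4 at ZT0) were added after seeing the data. Unadjusted counts were 610 to 1057 without an array, 1403 over all probe sets, 318 over transcripts above the median level, where fewer were tested, and 1965 with array weights, in which replicate 4 at ZT0 had the lowest weight (0.167). Transcripts whose arrays did not overlap were 677, and 312 of them were above the median level.

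For the difference between the steps, 1 call became 0 over all probe sets, 3 above the median level (with Etnppl and Plekhf1), 2 after further quantile normalization (with Etnppl), 9 with array weights (among them Fabp7, Polr3e, Psg23 and Zbtb16), 2 with robust eBayes (with Plekhf1) and 1 to 3 without an array: 2 without replicate 4 at ZT0 (with Fabp7), replicate 2 at ZT8 or replicate 4 at ZT12 (with Etnppl), and 3 without replicate 1 at ZT20. Unadjusted counts were 3092 over all probe sets, 916 above the median level, 2916 with array weights and 1293 to 2562 without an array. The cause of these changes was not tested.

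Replicate numbers did not pair the mice (correlations of deviations between same-numbered ZT8 and ZT12 arrays of -0.06, 0.19, -0.05 and -0.09). With the replicate number as a block the step had 0 calls and 870 unadjusted, and the difference between the steps 1 call, Sgk1 (adjusted p = 0.0132).

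Of 109 genes, 6 turned sign under alternatives that keep every array: Ciart (-0.016) and Hlf (-0.010) with quantile normalization, and Csnk1d (0.014), Csnk2a1 (0.038), Cirbp (-0.005) and Fkbp5 (-0.041) with array weights. Without single arrays 15 turned: Ciart (-0.046 to 0.083), Cirbp (-0.024 to 0.070), Clock (-0.061 to 0.042), Cry2 (-0.008 to 0.093), Csnk1a1 (-0.010 to 0.037), Csnk1d (-0.071 to 0.026), Csnk1e (-0.034 to 0.075), Csnk2a1 (-0.066 to 0.027), Fbxw11 (-0.033 to 0.063), Fkbp5 (-0.071 to 0.065), Hlf (-0.021 to 0.032), Mt1 (-0.005 to 0.045), Nfil3 (-0.068 to 0.011), Rorb (-0.026 to 0.068) and Slc6a3 (-0.292 to 0.032). Of 440 list medians, 16 moved by more than the spread of the list means.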

Other observations

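Of the 12146 probe sets without a gene in the annotation, 657 (5.41%) had an unadjusted p under 0.05 for ZT12 minus ZT8, and none passed after adjustment over all 35556 probe sets in limma.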
